A study of Mus musculus with 36 samples.

Results

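Dual-specificity MAP kinase phosphatases remove the phosphate groups from the threonine and the tyrosine of active MAP kinases, and 9 of their genes (Dusp1, Dusp4, Dusp5, Dusp6, Dusp7, Dusp8, Dusp10, Dusp14 and Dusp16) were followed here in stimulated mouse cortical neurons. The genes were taken by name from one enzyme family, and were chosen with earlier results of these data known. They are not all of its MAP kinase phosphatases, and Dusp2 is given below with the remaining dual-specificity phosphatases. All 9 were found among the 26709 genes of the RNA table and passed the filter on low values that left 16209 genes for testing. The cells were primary cortical neurons of CD-1 mouse embryos of day 15, grown for 7 days. Their activity was first silenced over 2 h with AP-5 (100 µM), which blocks glutamate receptors of the NMDA type, together with TTX (1 µM), which blocks voltage-gated sodium channels. They then received 10 ng/ml BDNF, a secreted neurotrophin, or 55 mM KCl, which depolarises the membrane, for 1, 6 or 10 h, and control neurons were kept in AP-5 and TTX. RNA-seq and ATAC-seq were each done on 18 samples, 2 per group, and the labels name no allele or transgene.

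MAP kinases carry signals from receptors such as TrkB, which binds BDNF, through Ras, Raf and MEK to ERK, while the JNK and p38 branches answer mostly to stress and cytokines. Many of the phosphatases that switch these kinases off are themselves made on demand when the kinases are active, so the family is known for negative feedback. Members differ in where they work: some sit in the nucleus and are quickly inducible, some hold ERK in the cytoplasm, and others prefer JNK and p38.

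Values below are normalised read counts, that is, reads per gene divided by one size factor per library. RNA libraries held 8.51 to 36.7 M reads in genes, and ATAC libraries 1.24 to 6.24 M in peaks. A gene was called when limma on log2(value + 1), with the 6 controls of all times as one level, gave a Benjamini-Hochberg adjusted p below 0.1 over all genes tested. All comparisons with controls shared the same 6 libraries. The 2 samples per group are described by the study as biological replicates. For each gene limma estimated a single moderated spread from all groups together, with the 6 controls of different times as one group. An SE or p-value below thus does not measure the spread of its own group. Neuronal markers had the highest summed level of the marker lists. Over 8 genes it was 46846 to 52521 in controls, 48777 to 54830 with BDNF and 46224 to 54315 with KCl. Most of it came from Map2 and Tubb3 (medians 23533 and 13921 over the 18 samples). These sums depend on the genes listed and are not corrected for gene length, so they do not give shares of cells. Astrocyte markers were also present, and their summed level of 6 genes was 13565 to 18300 in controls, 12894 to 13426 after 6 h of BDNF and 11362 to 13376 after 6 h of KCl. At 6 h, 6 of the 6 astrocyte markers were called lower with BDNF and 5 of the 6 with KCl, at 10 h 3 and 4 of the 6, and the part of this in the results at 6 h and 10 h was not tested. Markers of the oligodendrocyte lineage had a summed level of 6 genes of 5883 to 6323 in controls, 5606 to 6694 with BDNF and 4397 to 7302 with KCl. Microglial markers (summed level 129 to 232 over the 18 samples) and markers of endothelial cells and pericytes (177 to 304, with Cldn5 at a median of 0) were low. In bulk RNA, fewer cells that express a gene and less RNA per cell cannot be told apart.

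In silenced neurons the family was spread over a wide range of levels. Per kilobase of exon, Dusp8 stood highest at 543 ± 44.0 normalised reads (SD, n = 6), at the 92.2 percentile of the tested genes, and Dusp4 followed at 212 ± 24.0. Dusp7 (95.7 ± 9.18), Dusp1 (80.5 ± 3.33) and Dusp6 (71.4 ± 10.4) lay between the 47.4 and 55.9 percentiles, and the range of Dusp6 overlapped those of Dusp1 and Dusp7. Dusp10 (29.4 ± 3.76), Dusp14 (28.6 ± 5.65) and Dusp16 (24.0 ± 2.19) were close to each other, with overlapping ranges, and Dusp5 was lowest at 14.9 ± 3.12. No change of a member with time was called in silenced cells. Of the 16209 genes, limma called 0 (0%) between controls of 6 h and 1 h and 0 between 10 h and 1 h, with 164 and 181 genes at an unadjusted p below 0.05.

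Most members were called higher within 1 h of either stimulus. After 1 h of BDNF 6 of the 9 genes were called higher (Dusp1, Dusp4, Dusp5, Dusp6, Dusp8 and Dusp14), against 21.3% of all genes, and 1 was called lower (Dusp7), against 19.0%. After 1 h of KCl 9 of 9 were called higher, against 26.5% of all genes, and 0 lower, against 28.2%. Of these, the Dusp7 call (limma adjusted p = 0.0990) was kept in 8 of 17 alternative fits and the Dusp5 call in 16 of 17. The median log2 fold change of the 9 genes was 1.14 with BDNF and 1.09 with KCl, while the median over all genes was 0.0009 and 0.0012. Later the count fell. With BDNF 4 members were called higher and 3 lower at 6 h (all genes, 22.1% and 21.1%), and 4 higher and 0 lower at 10 h (21.1% and 19.5%). Against the controls of 6 h alone the 3 lower calls (Dusp1, Dusp8 and Dusp16) were lost. With KCl 7 were called higher and 1 lower at 6 h (33.4% and 33.1%), and 6 higher and 1 lower at 10 h (29.0% and 28.2%).

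**Figure D1:**
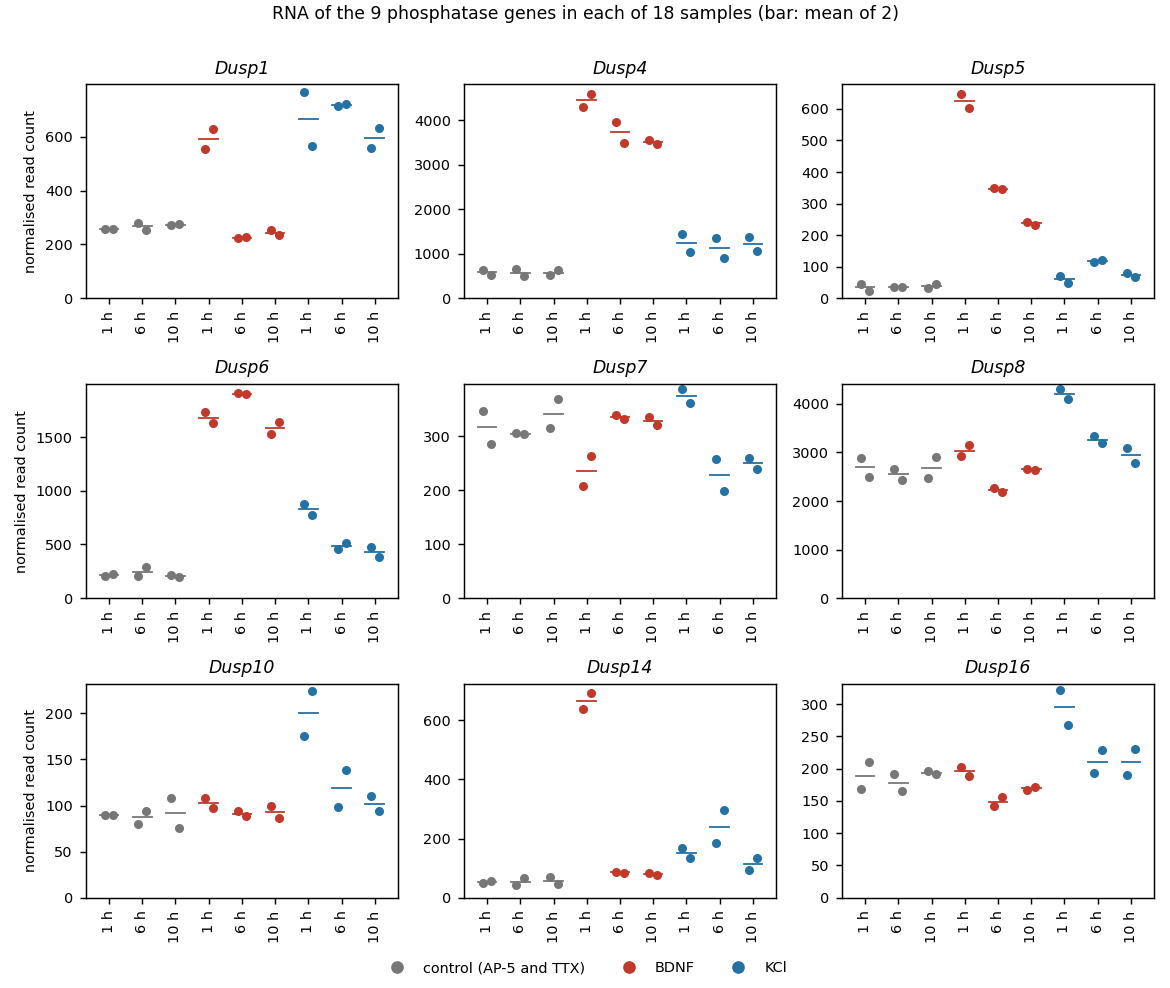
Normalised read counts (vertical axis, linear, from 0) of each of the 9 genes in all 18 samples, grouped along the horizontal axis by treatment and time; points are samples, bars the means of 2, grey controls, red BDNF and blue KCl. Dusp4, Dusp5 and Dusp6 stayed high through 10 h of BDNF, Dusp14 and Dusp1 had their highest BDNF values at 1 h, and Dusp8, Dusp10 and Dusp16 were highest after 1 h of KCl.

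Dusp5 (ENSMUSG00000034765, chr19:53529109-53542431, plus strand, mm10), a nuclear phosphatase that acts on ERK, had the widest range of the family, 4.14 on the log2 scale between its lowest and highest group mean. Controls held 24.1 to 45.0 normalised reads (median 36.7). BDNF samples held 646 and 602 (1 h), 349 and 346 (6 h), then 243 and 232 (10 h). Each BDNF sample thus lay above every control, and the values were lower at each later time. Its log2 fold change was 4.07 ± 0.18 (SE) at 1 h (limma adjusted p = 5.65e-14), the 19th largest rise of all genes tested, then 3.23 ± 0.18 at 6 h and 2.68 ± 0.18 at 10 h. The fall from 1 h to 6 h was called (−0.84 ± 0.22, adjusted p = 0.00644), and the difference of −0.55 ± 0.22 from 6 h to 10 h was not (adjusted p = 0.701). KCl samples held 71.6 and 50.3 (1 h), 116 and 122 (6 h), then 81.9 and 66.4 (10 h), again above every control but far below BDNF. With KCl the highest values were at 6 h: log2 fold changes were 0.72 ± 0.18, 1.69 ± 0.18 and 1.01 ± 0.18, and both the rise from 1 h to 6 h (0.97 ± 0.22, adjusted p = 0.000812) and the fall to 10 h (−0.68 ± 0.22, adjusted p = 0.0409) were called. The KCl call at 1 h was lost without KCl 1 h replicate A (0.47, adjusted p = 0.118), and the fall to 10 h without KCl 6 h replicate B (−0.65, adjusted p = 0.158) or KCl 10 h replicate B (−0.53, adjusted p = 0.203).

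The promoter of Dusp5 is shown because it was the sole member promoter with a CArG box, the element bound by serum response factor, which 1.63% of the 32851 RefSeq promoters of the same length held. It had 2 of them side by side, starting at −82 and −72 from the start site, and capitals mark these and a CRE core, read on the other strand, further on.
Dusp5 promoter (GRCm38.p6, chr19:53528895-53529194, plus strand): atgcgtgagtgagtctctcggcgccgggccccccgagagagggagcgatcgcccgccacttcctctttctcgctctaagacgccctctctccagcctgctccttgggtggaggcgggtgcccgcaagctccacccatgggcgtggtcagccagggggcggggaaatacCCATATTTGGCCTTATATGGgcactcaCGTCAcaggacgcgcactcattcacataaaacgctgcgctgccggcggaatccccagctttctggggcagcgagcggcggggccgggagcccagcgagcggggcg

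Dusp4 (ENSMUSG00000031530, chr8:34807297-34819894, plus strand, mm10), a nuclear phosphatase of ERK and JNK, rose with both stimuli and stayed high to 10 h. Controls held 510.2 to 650.0 normalised reads (median 584). BDNF samples held 4302 and 4595 at 1 h, and the level was still 3959 and 3496 at 6 h and 3560.3 and 3457 at 10 h. KCl samples held 1452 and 1047, 1365 and 906, and 1379 and 1062 at the same times. No stimulated sample overlapped the controls, and every BDNF sample lay above every KCl sample. The log2 fold change with BDNF was 2.94 ± 0.16 at 1 h (adjusted p = 2.83e-09), 2.68 ± 0.16 at 6 h and 2.60 ± 0.16 at 10 h. With KCl it was 1.09 ± 0.16 (adjusted p = 5.43e-05), 0.94 ± 0.16 and 1.06 ± 0.16. No change between neighbouring times was called for either stimulus, the differences lying between −0.26 ± 0.20 and 0.12 ± 0.20, with adjusted p of 0.378 to 1.00. Leaving out KCl 6 h replicate A turned the KCl difference from 1 h to 6 h into a call (−0.44, adjusted p = 0.0868).

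Dusp1 (ENSMUSG00000024190, chr17:26505590-26562128, minus strand, mm10), a nuclear phosphatase of p38, JNK and ERK and a classical immediate early gene, answered to both stimuli at 1 h and then parted ways. Controls held 255 to 281 normalised reads (median 266). BDNF samples held 555 and 627 at 1 h, but 222 and 228 at 6 h and 253 and 235 at 10 h, so that the levels at 6 h and 10 h lay just below every control. KCl samples held 767 and 566 (1 h), 714 and 721 (6 h), then 557 and 632 (10 h), above every control throughout. Against controls the log2 fold change with BDNF was 1.14 ± 0.095 at 1 h (adjusted p = 3.37e-09), −0.24 ± 0.095 at 6 h (adjusted p = 0.0514) and −0.13 ± 0.095 at 10 h (adjusted p = 0.317). The call at 6 h was lost when either BDNF 6 h sample was left out, and against the controls of 6 h alone. With KCl it was 1.30 ± 0.095, 1.43 ± 0.095 and 1.15 ± 0.095, each with an adjusted p of 2.57e-09 or less. The fall from 1 h to 6 h with BDNF was −1.39 ± 0.12 (adjusted p = 9.81e-09), where the difference with KCl was 0.12 ± 0.12 (adjusted p = 0.390). The KCl 1 h samples stood apart from each other, and without replicate A this difference became 0.34 (adjusted p = 0.0211). The difference of −0.27 ± 0.12 between 10 h and 6 h of KCl was not called (adjusted p = 0.116), but was without KCl 10 h replicate B (−0.36, adjusted p = 0.0922).

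The Dusp1 promoter carried the full cAMP response element (CRE, TGACGTCA), bound by CREB, which 1.79% of the 32851 promoters held. Among the 8 members with an entry it was found in Dusp1 and Dusp8. In Dusp1 it began at −143 from the start site, and the shorter CRE core TGACG, which each full CRE contains on both strands, was found once more at −191.
Dusp1 promoter (GRCm38.p6, chr17:26508423-26508722, minus strand): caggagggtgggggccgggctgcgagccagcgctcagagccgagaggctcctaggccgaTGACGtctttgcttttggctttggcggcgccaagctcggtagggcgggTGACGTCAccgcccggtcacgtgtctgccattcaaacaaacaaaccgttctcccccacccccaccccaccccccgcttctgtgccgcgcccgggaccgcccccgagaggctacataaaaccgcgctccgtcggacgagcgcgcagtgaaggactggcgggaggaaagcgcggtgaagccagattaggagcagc

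Dusp6 (ENSMUSG00000019960, chr10:99263231-99267489, plus strand, mm10), the cytoplasmic phosphatase that is specific for ERK, was high at all times of BDNF. Controls held 201 to 288 normalised reads (median 211). BDNF samples held 1730.5 and 1631 (1 h), 1909 and 1899 (6 h), then 1528 and 1638 (10 h). KCl samples held 877 and 777 (1 h), 459 and 515 (6 h), then 479 and 381 (10 h). All 12 stimulated samples lay above the controls and all 6 BDNF samples above the 6 KCl samples. The log2 fold change with BDNF was 2.92 ± 0.11 (adjusted p = 1.68e-14), 3.10 ± 0.11 and 2.83 ± 0.11 at the 3 times. No change between neighbouring times was called (0.18 ± 0.14, adjusted p = 0.359, and −0.27 ± 0.14, adjusted p = 0.877). With KCl it was 1.89 ± 0.11 at 1 h (adjusted p = 1.40e-11) and fell by 0.76 to 1.13 ± 0.11 at 6 h (SE of the fall 0.14, adjusted p = 7.85e-05), with 0.94 ± 0.11 at 10 h.

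Dusp7 (ENSMUSG00000053716, chr9:106368632-106375724, plus strand, mm10), the close relative of Dusp6 in the cytoplasm, did not follow it. Controls held 286 to 369 normalised reads (median 311). BDNF samples held 208 and 264 at 1 h, below every control, and 340.5 and 333 at 6 h and 337 and 322 at 10 h, within the control range. KCl samples held 388 and 361 at 1 h, overlapping the highest control, and 258 and 199 at 6 h and 260.3 and 239.6 at 10 h, below every control. Its log2 fold change was −0.45 ± 0.11 after 1 h of BDNF (adjusted p = 0.00321) and, after KCl, 0.23 ± 0.11 at 1 h (adjusted p = 0.0990), −0.50 ± 0.11 at 6 h (adjusted p = 0.000536) and −0.36 ± 0.11 at 10 h (adjusted p = 0.0104). The KCl rise at 1 h was lost when either KCl 1 h sample or any of 4 controls was left out, and was kept in 8 of 17 alternative fits. The BDNF fall was lost without BDNF 1 h replicate A (−0.28), and the KCl fall at 10 h without KCl 10 h replicate B (−0.30). The rise from 1 h to 6 h of BDNF was 0.52 ± 0.14 (adjusted p = 0.00639), which became 0.35 without BDNF 1 h replicate A (adjusted p = 0.146).

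Dusp8 (ENSMUSG00000037887, chr7:142079490-142095843, minus strand, mm10), Dusp10 (ENSMUSG00000039384, chr1:184013302-184075636, plus strand, mm10) and Dusp16 (ENSMUSG00000030203, chr6:134715468-134792625, minus strand, mm10), which act mainly on JNK and p38, peaked together after 1 h of KCl. Dusp8 held 2427 to 2902 normalised reads in controls (median 2579) and 4302 and 4092 after 1 h of KCl, a log2 fold change of 0.67 ± 0.07 (adjusted p = 7.53e-08). Dusp10 held 75.4 to 108 in controls (median 89.6) and 175 and 225 after 1 h of KCl, a log2 fold change of 1.15 ± 0.15 (adjusted p = 2.09e-06). Dusp16 held 165 to 210 in controls (median 192) and 322 and 267 after 1 h of KCl, a log2 fold change of 0.65 ± 0.11 (adjusted p = 6.73e-05). None of these samples overlapped the controls. By 6 h of KCl each had fallen from its 1 h level, by 0.36 for Dusp8 (adjusted p = 0.00135), 0.76 for Dusp10 (adjusted p = 0.00177) and 0.48 for Dusp16 (adjusted p = 0.00658) on the log2 scale.

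Later values of these genes lay near the controls. Dusp8 held 3329 and 3196 after 6 h of KCl, above every control (log2 fold change 0.31 ± 0.07, adjusted p = 0.000756), and 3098 and 2790.3 after 10 h (0.16 ± 0.07, adjusted p = 0.0687). The 10 h call was lost when any of 4 libraries was left out, among them KCl 10 h replicate A, and was kept in 12 of 17 alternative fits. Dusp10 held 98.3 and 139 after 6 h of KCl (0.39 ± 0.15, adjusted p = 0.0323), a call that was lost without KCl 6 h replicate B (0.14, adjusted p = 0.550). Dusp10 at 10 h (110.0 and 93.7) and Dusp16 at 6 h (193 and 229) and 10 h (191 and 229.8) were not called, with log2 fold changes of 0.19, 0.17 and 0.17. Leaving out KCl 6 h replicate A gave a call for Dusp16 at 6 h (0.30, adjusted p = 0.0897).

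With BDNF the JNK and p38 group moved little. Dusp8 held 2927 and 3147 at 1 h, above every control, and 2264 and 2181 at 6 h, below every control. The log2 fold changes were 0.20 ± 0.07 (adjusted p = 0.0307) and −0.25 ± 0.07 (adjusted p = 0.00951), and 0.01 ± 0.07 at 10 h (2658 and 2642). The rise was lost without BDNF 1 h replicate B and was kept in 15 of 17 alternative fits. The fall was lost without BDNF 6 h replicate B and against the controls of 6 h alone. The drop between the times of −0.45 ± 0.09 was called (adjusted p = 0.000503) and stayed called with any of the 4 samples left out. Dusp16 held 202 and 189 at 1 h and 141 and 156 at 6 h, the latter below every control (−0.32 ± 0.11, adjusted p = 0.0315). This call was lost without BDNF 6 h replicate A (−0.25) and against the controls of 6 h alone. Dusp10 stayed within the control range in every BDNF sample (86.3 to 108), with log2 fold changes of 0.03 to 0.20 and no call.

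The Dusp8 promoter held 2 full CREs, at −107 and −63 from the start site, and is shown beside that of Dusp1 for that reason.
Dusp8 promoter (GRCm38.p6, chr7:142095235-142095534, minus strand): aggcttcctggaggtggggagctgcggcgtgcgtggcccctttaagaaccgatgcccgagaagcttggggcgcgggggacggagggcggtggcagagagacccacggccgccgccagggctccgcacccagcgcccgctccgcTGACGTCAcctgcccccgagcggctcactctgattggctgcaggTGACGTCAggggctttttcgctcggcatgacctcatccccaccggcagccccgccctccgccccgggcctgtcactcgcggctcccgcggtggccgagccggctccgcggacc
The CRE core was found in 4 of the 8 promoters (Dusp1, Dusp5, Dusp8 and Dusp16), against 20.8% of all promoters. The EGR site GCGNGGGCG was found in Dusp16 alone (5.55% of all promoters), and the AP-1 site TGANTCA (7.81%) and the ETS site CCGGAAG (8.86%) in none. All searches covered both strands of 250 bases before and 50 bases after the start. The 8 promoters were rich in G and C (57.3% to 78.7%, against a median of 52.7% over all promoters). Dusp4 had no entry in the table of promoters.

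Dusp14 (ENSMUSG00000018648, chr11:84048041-84069261, minus strand, mm10), an atypical small phosphatase that lacks the kinase docking domain of the others, had its highest level after 1 h of BDNF. Controls held 43.1 to 69.7 normalised reads (median 54.2). BDNF samples held 639 and 691 at 1 h, but 87.4 and 84.2 at 6 h and 83.6 and 75.7 at 10 h. KCl samples held 169 and 135 (1 h), 186 and 295 (6 h), then 95.3 and 134 (10 h). All 12 stimulated samples lay above the controls, by a small margin at the later times of BDNF. The log2 fold change was 3.58 ± 0.19 after 1 h of BDNF (adjusted p = 3.28e-12), the 25th largest rise of all genes, and 0.64 ± 0.19 (adjusted p = 0.0114) and 0.53 ± 0.19 (adjusted p = 0.0351) at 6 h and 10 h. The drop of −2.94 ± 0.23 from 1 h to 6 h of BDNF (adjusted p = 6.33e-09) was the 21st largest difference of either sign among all genes in that comparison. KCl gave 1.45 ± 0.19, 2.08 ± 0.19 and 1.03 ± 0.19 at the 3 times (adjusted p = 0.000119 or less), with the 6 h samples far apart. The KCl rise from 1 h to 6 h (0.63 ± 0.23, adjusted p = 0.0268) was lost without KCl 6 h replicate B (0.30, adjusted p = 0.360) or KCl 1 h replicate B (0.47, adjusted p = 0.199). The fall from 6 h to 10 h (−1.04 ± 0.23, adjusted p = 0.00463) was lost without KCl 10 h replicate A (−0.80, adjusted p = 0.107). The call at 10 h of BDNF was lost when either BDNF 10 h sample was left out, and was kept in 14 of 17 alternative fits.

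**Figure D2:**
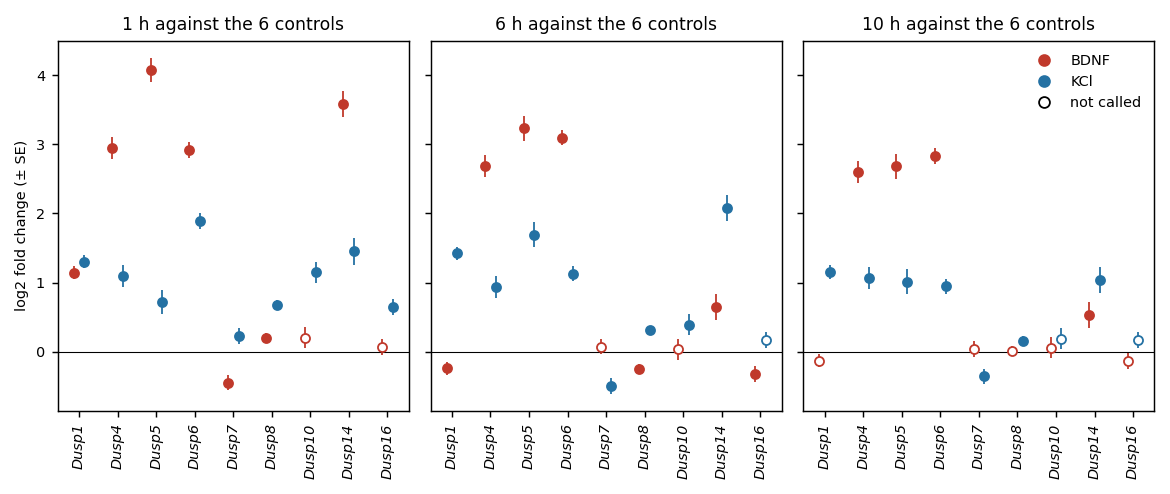
Log2 fold change against the 6 controls (vertical axis; bars are SE) for each gene at 1, 6 and 10 h; red BDNF, blue KCl, open symbols not called at an adjusted p below 0.1. Dusp4, Dusp5 and Dusp6 stayed between 2.60 and 3.23 at 6 h and 10 h of BDNF, apart from the other 6 genes, and the values for Dusp7 lay below 0 after 1 h of BDNF and after 6 h and 10 h of KCl.

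Changes of the members with time were tested between neighbouring times. From 1 h to 6 h of BDNF 1 member was called higher (Dusp7) and 5 lower (Dusp1, Dusp5, Dusp8, Dusp14 and Dusp16), against 15.8% and 17.7% of all genes. The Dusp16 call (−0.39 ± 0.14, adjusted p = 0.0423) was lost without BDNF 1 h replicate A (adjusted p = 0.203) or BDNF 6 h replicate A (adjusted p = 0.234). From 6 h to 10 h of BDNF no member was called and few genes were, 0.0740% higher and 0.142% lower, with 949 genes at an unadjusted p below 0.05. edgeR and DESeq2 on the whole reads called 56 and 86 genes there, where limma called 35. From 1 h to 6 h of KCl 2 members were called higher (Dusp5 and Dusp14) and 5 lower (Dusp6, Dusp7, Dusp8, Dusp10 and Dusp16), against 30.9% and 28.7%. The KCl fall of Dusp7 was −0.72 ± 0.14 (adjusted p = 0.000123). From 6 h to 10 h of KCl 0 were called higher and 2 lower (Dusp5 and Dusp14), against 12.9% and 9.66%.

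Compared directly at the same time, BDNF and KCl split the family. At 1 h Dusp4, Dusp5, Dusp6 and Dusp14 were called higher with BDNF (all genes, 24.6%) and Dusp7, Dusp8, Dusp10 and Dusp16 lower (18.2%), while Dusp1 gave a log2 difference of −0.16 ± 0.12 (adjusted p = 0.311). Dusp1 did become a call without KCl 1 h replicate B (−0.38, adjusted p = 0.0202). The log2 difference was 3.36 ± 0.22 for Dusp5 (adjusted p = 9.75e-11), 2.13 ± 0.23 for Dusp14, 1.85 ± 0.20 for Dusp4 and 1.02 ± 0.14 for Dusp6. On the other side it was −0.94 ± 0.19 for Dusp10 (adjusted p = 0.000384), −0.67 ± 0.14 for Dusp7, −0.58 ± 0.14 for Dusp16 and −0.47 ± 0.09 for Dusp8. Of the 6 markers of the oligodendrocyte lineage 5 were called higher with BDNF than with KCl at 1 h (median log2 difference 0.39), and their part in these differences was not tested.

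At 6 h a different split was seen. Dusp4 (1.74 ± 0.20), Dusp5 (1.54 ± 0.22), Dusp6 (1.97 ± 0.14) and Dusp7 (0.57 ± 0.14) were called higher with BDNF (29.6% of all genes), and Dusp1 (−1.67 ± 0.12, adjusted p = 2.22e-10), Dusp14 (−1.44 ± 0.23, adjusted p = 2.65e-05), Dusp8 (−0.55 ± 0.09) and Dusp16 (−0.50 ± 0.14) lower (27.8%). Dusp14 and Dusp7 thus stood on opposite sides at 1 h and 6 h. Dusp10 was not called (−0.35 ± 0.19, adjusted p = 0.121), although it was with edgeR on whole reads (adjusted p = 0.0996) and without KCl 6 h replicate A (adjusted p = 0.0215). Of these markers 3 were called higher and 2 lower at 6 h. Of 3 tested markers of endothelial cells and pericytes 2 were called lower at 6 h and at 10 h, and the part of both lists was not tested. At 10 h the same 4 genes were called higher (23.1% of all genes), with 1.89 ± 0.14 for Dusp6, 1.67 ± 0.22 for Dusp5, 1.54 ± 0.20 for Dusp4 and 0.40 ± 0.14 for Dusp7. Dusp1 (−1.28 ± 0.12), Dusp14 (−0.50 ± 0.23, adjusted p = 0.0949) and Dusp16 (−0.30 ± 0.14, adjusted p = 0.0960) were called lower (21.8%). The Dusp14 and Dusp16 calls at 10 h were each lost when either BDNF 10 h sample or KCl 10 h replicate B was left out. They were kept in 8 and 7 of 13 alternative fits. The Dusp7 call was lost without BDNF 10 h replicate A (0.36) or KCl 10 h replicate B (0.34).

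**Figure D3:**
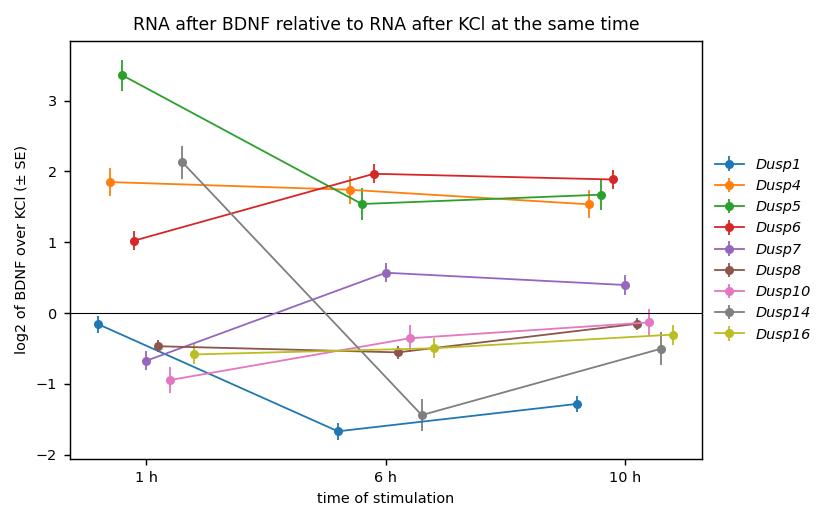
Log2 ratio of RNA after BDNF over RNA after KCl (vertical axis; bars are SE) against the time of stimulation (1, 6 and 10 h) for the 9 genes, where values above 0 are higher with BDNF. Dusp4, Dusp5 and Dusp6 stayed above 1 at each time, Dusp14 went from 2.13 to −1.44 between 1 h and 6 h, and Dusp1 from −0.16 to −1.67.

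As a description over the 9 group means, which share libraries and controls, some of the members formed 2 sets. Dusp4, Dusp5 and Dusp6 went together (Pearson r on the log2 scale 0.915 to 0.976 for the 3 pairs), and so did Dusp8, Dusp10 and Dusp16 (0.891 to 0.967). Dusp1 lay nearer to the second set (0.684 to 0.823) than to the first (0.0754 to 0.129), and Dusp7 had its lowest values with Dusp14 (−0.647) and Dusp1 (−0.580). Dusp14 had 0.541 to 0.674 with the first set, 0.322 to 0.489 with the second and 0.753 with Dusp1. The median over the 36 pairs was 0.150. Over the 18 samples, the genes most like Dusp5 were Etv5 (r = 0.977), an ETS transcription factor, Spry4 (0.974), an inhibitor of receptor kinase signals, and Ercc1 (0.963), a DNA repair protein. Those most like Dusp14 were Sdcbp (0.963), the adaptor syntenin, Baz1a (0.957), a chromatin remodelling subunit, and Csrnp1 (0.954), a nuclear protein. Spry4 had log2 fold changes of 3.16, 2.93 and 2.70 at 1, 6 and 10 h of BDNF and 0.68, 1.74 and 1.40 of KCl, and Csrnp1 had 4.33, 1.21 and 1.02 of BDNF and 2.42, 1.81 and 1.08 of KCl.

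After 1 h of either stimulus and 6 h of KCl, median changes from controls of other groups of pathway genes lay nearer 0 than those of the members. This did not hold for every group later with BDNF. At 6 h the member median was 0.07, and the tyrosine phosphatases of MAP kinases had −0.14. At 10 h it was 0.06, with 0.14 for these and −0.07 for the remaining dual-specificity phosphatases. The other groups lay nearer 0 than the members at both times. Of all genes, 21.3% were called higher and 19.0% lower after 1 h of BDNF. The shares were 26.5% and 28.2% after 1 h of KCl and 33.4% and 33.1% after 6 h of KCl. The counts of this and the following lists stand beside these shares, and no list was tested against them. Of 12 MAP kinases tested, 2 were called higher and 1 lower after 1 h of BDNF and 1 higher and 5 lower after 1 h of KCl, with median log2 fold changes of 0.07 and −0.11. The largest called differences were −0.65 ± 0.14 for Mapk15, an atypical MAP kinase, after BDNF and −0.59 ± 0.09 for Mapk11, a p38 kinase, after KCl. After 6 h of KCl 6 were called higher and 4 lower, led by Mapk12, another p38 kinase, at −0.91 ± 0.21. Of 7 MAP kinase kinases, 2 were called higher and 1 lower at 1 h of BDNF, 1 and 3 at 1 h of KCl and 5 and 1 at 6 h of KCl. The largest were 0.20 ± 0.08 for Map2k2, which activates ERK, −0.55 ± 0.09 for Map2k3, which activates p38, and 0.53 ± 0.07 for Map2k4, which activates JNK.

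Upstream of them, 17 kinases of the Raf and MAP kinase kinase kinase list were tested, and 8 were called higher and 3 lower after 1 h of BDNF, 5 and 2 after 1 h of KCl, and 6 and 2 after 6 h of KCl. Map3k14, the kinase of the noncanonical NF-κB pathway, rose from 99.5 ± 13.7 normalised reads in controls (SD, n = 6) to 313 ± 7.23 (n = 2) after 1 h of BDNF, a log2 fold change of 1.65 ± 0.15 (limma adjusted p = 1.03e-08). Map3k10, a mixed lineage kinase, had 0.86 ± 0.10 after 1 h of KCl, and Map3k5, a stress kinase, 1.87 ± 0.14 after 6 h of KCl. Of 26 genes from TrkB to Ras, 10 were called higher and 4 lower after 1 h of BDNF, 12 and 5 after 1 h of KCl and 13 and 6 after 6 h of KCl. Shc3, a neuronal adaptor of receptor kinases, had 0.97 ± 0.12 after BDNF and 1.35 ± 0.12 after 6 h of KCl, and Crkl, another adaptor, 0.69 ± 0.07 after 1 h of KCl. Of 16 kinases and scaffolds downstream of MAP kinases, 5, 6 and 7 were called higher and 2, 2 and 5 lower in these 3 comparisons, with Mknk2, which phosphorylates a translation factor, at 0.96 ± 0.10 after BDNF and Rps6ka4, a nuclear kinase, at −0.97 ± 0.11 and −0.92 ± 0.11 after 1 h and 6 h of KCl.

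The remaining dual-specificity phosphatases had medians below 0 after 1 h of either stimulus and 6 h of KCl. Of 11 tested, 1 was called higher and 5 lower after 1 h of BDNF (median log2 fold change −0.19), 2 and 4 after 1 h of KCl (−0.17), and 2 and 6 after 6 h of KCl (−0.33). Dusp22 fell from 73.7 ± 14.8 to 43.8 ± 3.89 normalised reads after 1 h of BDNF (−0.71 ± 0.20) and Dusp23 had −0.68 ± 0.21. Dusp2, a nuclear phosphatase of ERK known from immune cells, had −0.76 ± 0.30 after 1 h of KCl, from 40.1 ± 4.59 to 23.7 ± 7.32 normalised reads, and Dusp23 −0.50 ± 0.21. After 6 h of KCl Dusp15 fell from 187 ± 27.2 to 39.6 ± 13.5 (−2.24 ± 0.17) and Dusp19 from 146 ± 12.3 to 32.2 ± 5.21 (−2.15 ± 0.14). Dusp15 is known from myelinating cells, and the 6 markers of the oligodendrocyte lineage had a median log2 fold change of −0.05 there, 2 being called higher and 3 lower. Of the 2 tyrosine phosphatases of MAP kinases that were tested, Ptprr was called higher after 1 h of KCl (0.49 ± 0.12) and Ptpn5 after 6 h of KCl (0.29 ± 0.11), and 0 were called after 1 h of BDNF.

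ATAC-seq was read over 24 peaks whose nearest start of a protein-coding gene belonged to a member and lay within 50 kb, all of which passed the filter on low counts. There were 9 promoter peaks (centre within 1 kb of a start) and 15 others. Dusp6 and Dusp8 had 5 peaks each, Dusp4 and Dusp7 3, Dusp1, Dusp10 and Dusp16 2, and Dusp5 and Dusp14 1, and Dusp10 had none at its promoter. Peaks were called with edgeR's quasi-likelihood test on the counts, with LOESS offsets and a Benjamini-Hochberg adjusted p below 0.1 over 56383 peaks. ATAC values below are counts scaled by these offsets.

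After 1 h of BDNF 5 of the 24 peaks were called higher, against 12.4% of all peaks, and 1 lower, against 4.92%. At 6 h 4 were called higher and 0 lower (8.82% and 1.83%), and at 10 h 3 higher and 1 lower (7.56% and 1.80%). After KCl the counts were 1 higher and 2 lower at 1 h (5.15% and 3.15%), 2 and 0 at 6 h (5.59% and 1.98%), and 0 and 1 at 10 h (5.93% and 1.94%). Of the 9 promoter peaks 0 were called higher at 1, 6 or 10 h of BDNF, where 4.25%, 1.64% and 1.90% of the 14390 promoter peaks of all genes were, so that this count lies near the background. Promoter peaks had log2 fold changes of −0.66 to 0.13 after 1 h of BDNF, where the other 15 ranged from −0.96 to 2.86. In the direct comparison of BDNF with KCl 4 peaks were called higher and 0 lower at 1 h (9.34% and 5.51%), 1 and 1 at 6 h (2.15% and 1.44%), and 1 and 0 at 10 h (1.20% and 0.819%). The 2 calls at 6 h were lost with any of the 4 samples left out.

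**Figure D4:**
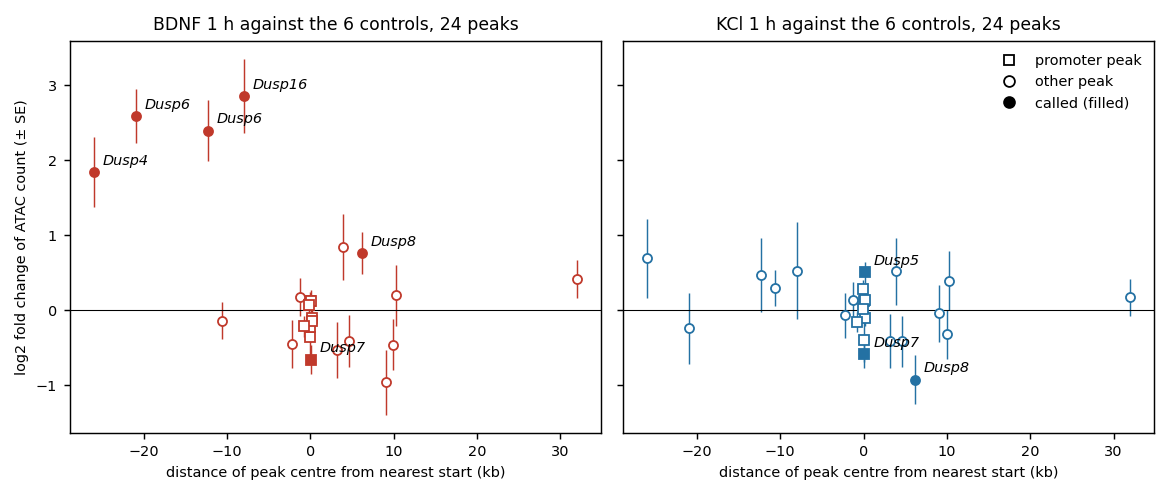
Log2 fold change of the ATAC count against the 6 controls (vertical axis; bars are SE) for the 24 member peaks after 1 h of BDNF (left) and KCl (right), by the distance in kb of the peak's centre from the nearest start (negative is upstream); squares are promoter peaks and filled symbols are called. With BDNF 4 peaks of Dusp4, Dusp6 and Dusp16 at negative distances lay between 1.84 and 2.86, and with KCl none of the 4 was called. The Dusp16 peak lies in an intron, and the start nearest to it is an internal one.

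The 4 peaks with the largest rise after BDNF had low counts in silenced neurons. A peak at −21.0 kb from the start of Dusp6 (outside the gene) held 5.20 to 14.8 scaled counts in controls (median 7.54), 49.7 and 59.2 after 1 h of BDNF, 32.6 and 36.4 after 6 h and 25.8 and 27.4 after 10 h. KCl samples held 5.25 to 15.3 and overlapped the controls. Against controls the log2 fold change was 2.59 ± 0.36 after 1 h of BDNF (edgeR adjusted p = 2.47e-09), 1.93 ± 0.38 at 6 h and 1.56 ± 0.43 at 10 h, and −0.24 ± 0.48 after 1 h of KCl. The direct difference at 1 h was 2.83 ± 0.49 (adjusted p = 6.76e-06) and stayed called under every alternative tried. The call at 10 h was lost without BDNF 10 h replicate B (1.51, adjusted p = 0.131) and against the controls of 10 h alone (0.87, adjusted p = 0.469), whose counts were the highest of the controls.

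A second peak, at −12.3 kb from the start of Dusp6, kept its level to 10 h. It held 1.22 to 15.5 scaled counts in controls (median 5.59), and 32.3 and 36.7, 32.3 and 33.8, and 43.1 and 30.9 at the 3 times of BDNF, all above the controls. KCl samples held 7.29 to 17.1, and those of 6 h (17.1 and 15.7) lay just above the highest control. That difference of 1.35 ± 0.50 was not called (adjusted p = 0.102), but was with TMM scaling (1.52, adjusted p = 0.0390), with DESeq2 size factors (1.47, adjusted p = 0.0455), with limma (1.58, adjusted p = 0.0461) and without control 1 h replicate B (1.94, adjusted p = 0.0166). The log2 fold change with BDNF was 2.40 ± 0.41, 2.34 ± 0.41 and 2.48 ± 0.44, called under every alternative, and the direct difference to KCl was 1.93 ± 0.51 at 1 h (adjusted p = 0.00557) and 1.89 ± 0.55 at 10 h (adjusted p = 0.0577). Without KCl 1 h replicate B the former was 1.61 (adjusted p = 0.171), and the latter was lost in 3 of the 4 fits that left out a sample (adjusted p = 0.234 to 0.306).

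A peak in an intron of Dusp16 lay at −7.98 kb from the gene's nearest start, an internal one away from the promoter peak (chr6:134791935-134793023). The intron peak held 1.13 to 8.86 scaled counts in controls (median 2.59) and 32.2 and 19.4 after 1 h of BDNF, 15.9 and 20.4 after 6 h and 11.5 and 19.9 after 10 h. Its log2 fold change of 2.86 ± 0.50 at 1 h (adjusted p = 1.81e-06) was the largest of the 24 peaks, while the RNA of Dusp16 was not called higher at any time of BDNF. The 6 h value (2.38 ± 0.52) was not called against the controls of 6 h alone (1.66, adjusted p = 0.137), the 10 h value (2.18 ± 0.58) not without BDNF 10 h replicate B (1.60, adjusted p = 0.320), and the direct difference to KCl at 1 h (2.33 ± 0.61, adjusted p = 0.00491) not without BDNF 1 h replicate A (1.56, adjusted p = 0.230) or KCl 1 h replicate B (1.85, adjusted p = 0.177).

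A peak at −26.0 kb from the start of Dusp4 held 1.15 to 12.8 scaled counts in controls (median 6.50) and 19.7 and 23.5 after 1 h of BDNF, a log2 fold change of 1.84 ± 0.47 (adjusted p = 0.00182) that was lost without BDNF 1 h replicate B (1.45, adjusted p = 0.162). It was also called after 6 h of BDNF (1.53 ± 0.48, adjusted p = 0.0247) and of KCl (1.49 ± 0.53, adjusted p = 0.0811). Without either BDNF 6 h sample the former had an adjusted p of 0.206 to 0.244, and without KCl 6 h replicate A the latter was 0.82 (adjusted p = 0.751).

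**Figure D5:**
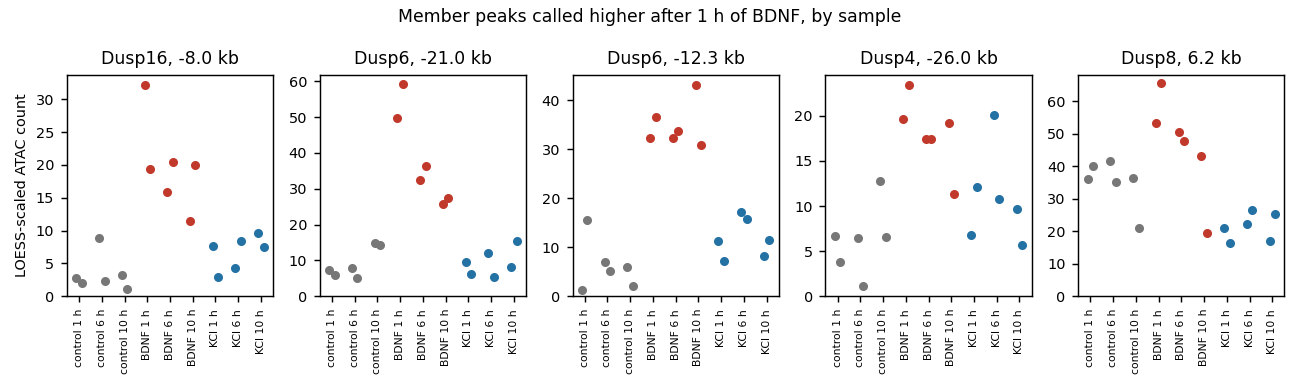
LOESS-scaled ATAC counts (vertical axis, linear, from 0) in each of the 18 samples for the 5 member peaks called higher after 1 h of BDNF, with the distance to the nearest start in each title; grey controls, red BDNF, blue KCl. In the Dusp16 panel and both Dusp6 panels all BDNF samples lie above all controls, and the Dusp8 peak is above the controls after 1 h of BDNF and near or below the lowest control after 1 h of KCl.

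These 4 peaks are shown because each held an AP-1 site (TGANTCA), the element bound by Fos and Jun proteins. No other member peak held one in the 250 bases around its centre. In windows of 250 bases around the peak centre the site was found in 14.8% of 58173 peaks. The 4 member peaks with a site had log2 fold changes of 1.84 to 2.86 after 1 h of BDNF, and the 20 without ranged from −0.96 to 0.84. This is a description of 24 peaks, and no test was made. Capitals mark the sites, 2 in the Dusp16 peak and 1 in each of the others; the sequences are those of the plus strand of mm10.
Dusp6 peak, central 300 bases (chr10:99242109-99242408): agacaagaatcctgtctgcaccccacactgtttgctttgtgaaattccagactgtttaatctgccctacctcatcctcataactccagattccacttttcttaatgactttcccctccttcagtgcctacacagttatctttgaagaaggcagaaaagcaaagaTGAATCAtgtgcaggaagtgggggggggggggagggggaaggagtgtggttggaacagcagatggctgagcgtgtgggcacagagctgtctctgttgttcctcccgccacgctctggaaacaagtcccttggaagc
Dusp6 peak (chr10:99250820-99251084): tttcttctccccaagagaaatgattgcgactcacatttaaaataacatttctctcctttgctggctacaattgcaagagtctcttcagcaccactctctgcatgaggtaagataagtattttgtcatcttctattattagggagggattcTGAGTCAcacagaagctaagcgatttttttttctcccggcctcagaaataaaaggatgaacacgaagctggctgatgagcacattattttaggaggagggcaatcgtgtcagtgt
Dusp16 peak (chr6:134733909-134734174): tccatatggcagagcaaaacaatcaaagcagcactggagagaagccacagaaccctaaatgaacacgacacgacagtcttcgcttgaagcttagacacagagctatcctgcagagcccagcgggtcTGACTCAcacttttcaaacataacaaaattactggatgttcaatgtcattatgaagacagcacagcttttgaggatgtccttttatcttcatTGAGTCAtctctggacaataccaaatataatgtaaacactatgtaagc
Dusp4 peak (chr8:34781260-34781397): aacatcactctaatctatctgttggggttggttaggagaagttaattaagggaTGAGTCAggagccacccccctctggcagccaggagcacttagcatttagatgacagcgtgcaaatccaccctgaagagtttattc
The full CRE was found in the same windows at the Dusp1 and Dusp8 promoter peaks (0.849% of all peaks), the CRE core in 4 of the 24 (14.4%), and the EGR site, the ETS site and the CArG box in 0 of the 24 (3.26%, 3.91% and 1.19% of all peaks). The CArG boxes and the CRE core of the Dusp5 promoter lie inside its promoter peak but outside this central window.

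Among the remaining peaks, an intron peak of Dusp8 (chr7:142088894-142089335, 6.16 kb downstream of the start) moved in opposite directions with the stimuli. It held 21.0 to 41.7 scaled counts in controls (median 36.3), 53.4 and 65.8 after 1 h of BDNF and 21.0 and 16.5 after 1 h of KCl. The log2 fold changes were 0.76 ± 0.28 (adjusted p = 0.0486) and −0.92 ± 0.32 (adjusted p = 0.0751), and both were lost in several fits that left out one sample, without BDNF 1 h replicate B (0.61, adjusted p = 0.429) and without KCl 1 h replicate B (−0.73, adjusted p = 0.485) among them. The direct difference of 1.69 ± 0.37 (adjusted p = 0.000481) stayed called under every alternative. Another intron peak of Dusp8 (chr7:142091999-142092150) was called lower after 10 h of KCl (−1.16 ± 0.42, adjusted p = 0.0853), a call that 6 of 13 alternatives did not keep.

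Changes at promoter peaks were small. A Dusp7 promoter peak (chr9:106368284-106369157) held 99.6 to 128 scaled counts in controls (median 104), and fell to 77.1 and 60.9 after 1 h of BDNF (−0.66 ± 0.19, adjusted p = 0.00815) and to 61.0 and 81.7 after 1 h of KCl (−0.58 ± 0.18, adjusted p = 0.0435). These calls were lost without BDNF 1 h replicate B (−0.48, adjusted p = 0.304) and without KCl 1 h replicate A (−0.40, adjusted p = 0.460), the KCl call also against the controls of 1 h alone (−0.57, adjusted p = 0.160). A second promoter peak of Dusp7 (chr9:106367606-106368049) held 144 to 213 in controls, with log2 fold changes of −0.21 to 0.11 and no call. The Dusp7 peak with the largest difference from controls (chr9:106384461-106384743, 9.98 kb downstream of the start) was not called either (−0.71 ± 0.38 after 10 h of BDNF, adjusted p = 0.330). The Dusp5 promoter peak (chr19:53528749-53529728) held 114 to 138 in controls (median 125) and 171 and 182 after 1 h of KCl (0.51 ± 0.14, adjusted p = 0.0152), which was lost when either KCl sample was left out (adjusted p = 0.105 to 0.235) and against the controls of 1 h alone (0.48, adjusted p = 0.123), and 143 and 128 after 1 h of BDNF (0.12 ± 0.15, adjusted p = 0.689). The Dusp1 promoter peak (chr17:26507942-26509139) held 177 to 203 in controls (median 197) and 244 and 280.4 after 6 h of KCl (0.42 ± 0.13, adjusted p = 0.0333), lost when either KCl 6 h sample was left out (adjusted p = 0.135 to 0.280) with TMM scaling (0.26, adjusted p = 0.235), with DESeq2 size factors (0.22, adjusted p = 0.342) and against the controls of 6 h alone (0.38, adjusted p = 0.194). The Dusp4 promoter peak (chr8:34806829-34808098) was called lower after 10 h of BDNF (−0.43 ± 0.14, adjusted p = 0.0355), which rested on BDNF 10 h replicate A (−0.17 without it, adjusted p = 0.757) and was lost against the controls of 10 h alone (−0.21, adjusted p = 0.631). It was called lower after 10 h of KCl with TMM scaling (−0.37, adjusted p = 0.0531) and DESeq2 size factors (−0.41, adjusted p = 0.0250). The promoter peaks of Dusp6, Dusp8, Dusp14 and Dusp16 were not called in any comparison with controls, but other scalings called the Dusp6 promoter peak lower. TMM scaling did so after 1 h of BDNF (−0.25, adjusted p = 0.0783) and after 1, 6 and 10 h of KCl (−0.30, −0.46 and −0.44). DESeq2 size factors did so at the same times (−0.26 with BDNF, −0.32, −0.50 and −0.49 with KCl) and after 10 h of BDNF (−0.31, adjusted p = 0.0510). The Dusp14 promoter peak had log2 fold changes against controls of −0.40 to 0.22. The 2 Dusp10 peaks, upstream (chr1:184002419-184002943) and in an intron (chr1:184065981-184066797), had log2 fold changes against controls of −0.19 to 0.42 and no call.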

How the data were processed

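RNA-seq and ATAC-seq data of 18 samples each were used. Per the paper's methods, the authors aligned RNA reads with TopHat2 to mm10 with GENCODE annotation and scaled counts with DESeq2, aligned ATAC reads with Bowtie2, called peaks with MACS2 in each sample and counted reads in a consensus set with DiffBind. For RNA, which program counted reads was not given in the sources used here. As deposited, RNA values are a normalised signal: reads of a gene divided by a size factor, and all values gave whole reads within 0.01. The deposited ATAC table is named as normalised, but holds whole numbers with differing column totals and was taken as counts per peak of the authors' set; whether the LOESS step they name had been applied was not given, and if so the offsets used here scaled the values again. Columns of the authors' own comparisons hold fold changes and p-values and were not used. Gene names came from the deposited tables and GENCODE, gene positions from GENCODE on mm10, and columns were matched to samples by their names.

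RNA was tested with limma 3.58.1 (R 4.3.3; log2(value + 1), trend and robust moderation) over 16209 genes with a mean of at least 10, so a fold change is understated for low genes. ATAC counts were tested with edgeR 4.0.16 (quasi-likelihood, LOESS offsets) over 56383 of 58177 peaks. All tests were two-sided with Benjamini-Hochberg adjustment, and an adjusted p below 0.1 was a call. Scripts were tested on simulated data. Counting error falls with depth, so it was largest in the libraries with fewest reads. Samples of a group also differed beyond counting error. Relative to that error, the spread between the 2 RNA samples of a group (chi-square per degree of freedom) was 39.6 at KCl 6 h. It was 2.44 to 10.4 in the other RNA groups. SEs and p-values, which rest on a spread shared by all groups, do not show this difference. Alternatives were edgeR and DESeq2 1.42.0 on whole reads, other scalings, filters and thresholds, controls of the same time, a replicate block, and leaving out each sample. On whole reads edgeR and DESeq2 called 6430 and 5759 genes after 1 h of BDNF, where limma called 6546. All members are named, with, for each pathway list, the called gene of the largest change and, for Dusp5 and Dusp14, the 3 genes most alike; of the list of other phosphatases the 2 largest. Promoter peaks and the most changed peak of each member are named, and the Dusp6 peak at −12.3 kb and the Dusp8 intron peaks were singled out after their values were seen. The members and lists were chosen with earlier results of these data known. Promoters are from RefSeq (GRCm38.p6) and peak sequences from mm10.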

Additional observations from a re-analysis of the deposited data

Results flagged for a closer look

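Dusp1, Dusp7 and Dusp8 were called in opposite directions by the stimuli at the same time or by one stimulus at different times, and the difference itself was called. The opposite directions rest on calls that some alternative fits lost. These were Dusp1 at 6 h of BDNF (kept in 14 of 17) and Dusp7 at 1 h of KCl (8 of 17) and of BDNF (16 of 17). Dusp8 at 1 h and at 6 h of BDNF was kept in 15 of 17 each. The differences that follow were each kept in 13 of 13. Dusp1 was lower with BDNF than with KCl at 6 h (log2 difference −1.67) and lower at 6 h than at 1 h of BDNF (−1.39). Dusp7 was lower with BDNF than with KCl at 1 h (−0.67) and lower at 6 h than at 1 h of KCl (−0.72). Dusp8 was lower with BDNF than with KCl at 6 h (−0.55) and lower at 6 h than at 1 h of BDNF (−0.45). For Dusp6 the highest of the 6 controls, control 6 h replicate B at 288 normalised reads, stood apart from the others, with a gap of 0.740 of the whole range. Chance sets about 1 in 20 such groups apart.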

How the results depend on the processing

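At the threshold of 0.1, 61 of the 80 RNA calls of members and 8 of the 27 ATAC calls were kept in every alternative fit, and no call changed sign. With the controls of the same time 4 members were called at BDNF 6 h, and Dusp1, Dusp8 and Dusp16 were not. With these controls peak counts became 2 at BDNF 10 h, 0 at KCl 1 h, 1 at KCl 6 h and 0 at KCl 10 h. At an adjusted p below 0.01 4 members were called at BDNF 6 h, 4 between BDNF and KCl at 10 h and 1 between KCl 10 h and 6 h, and 0 peaks at KCl 1, 6 and 10 h and between the stimuli at 6 h and 10 h. Peaks within 20 kb gave 2 calls at BDNF 6 h, 1 at KCl 6 h and 1 between the stimuli at 6 h. TMM scaling gave 3 peaks at KCl 10 h and 1 between the stimuli at 6 h, DESeq2 size factors 4 and 1, and limma 0 between the stimuli at 10 h. Leaving out one sample gave 6 to 7 members at BDNF 1 h, 5 to 7 at 6 h and 3 to 4 at 10 h, 7 to 9 at KCl 1 h, 7 to 9 at 6 h and 6 to 7 at 10 h. Between the stimuli it gave 8 to 9, 8 to 9 and 4 to 7, for the change from 1 h to 6 h 4 to 6 (BDNF) and 6 to 8 (KCl), and from 6 h to 10 h 0 and 1 to 2. Peak counts were 3 to 6, 3 to 4 and 3 to 5 for BDNF, 0 to 3, 0 to 2 and 0 to 1 for KCl, and 2 to 4, 0 and 0 to 1 between the stimuli. Changes at an adjusted p below 0.01 follow from the stricter threshold and those within 20 kb from fewer peaks. In the fits that left out a sample some counts rose and others fell. For these and the remaining alternatives the cause was not tested.

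A replicate block by column letter left the member counts as they were, 7 at BDNF 1 h, with 6705 genes called in all against 6546. The labels do not say whether the letters pair samples across groups, and the values do not settle it. Over 36 pairs of groups the correlation of A minus B ran from −0.31 to 0.42 with a median of 0.0649, and 13 were over 0.1. Over all genes, calls at BDNF 10 h fell from 6583 to 4321 with the controls of 10 h alone, and those between BDNF 10 h and 6 h were 86 with DESeq2, 56 with edgeR, 18 with no filter and 15 with same-time controls, against 35. At an adjusted p below 0.01 the calls were 3611 of 6546 at BDNF 1 h, 3839 of 7014 at 6 h, 3201 of 6583 at 10 h, 5906 of 8863 at KCl 1 h and 6116 of 9274 at 10 h. Between the stimuli they were 4143 of 6936 at 1 h and 4161 of 7287 at 10 h, and between times 2637 of 5443 (BDNF 6 h and 1 h), 7 of 35 (BDNF 10 h and 6 h) and 1027 of 3651 (KCl 10 h and 6 h). The low counts of distal peaks, often under 10 in controls, limit the precision of their fold changes.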
